A study of Arapaima gigas with 24 samples.

Results

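The testes of 3 male and the ovaries of 3 female Arapaima gigas, a large air-breathing fish of South American fresh waters, were compared over every gene model counted. The comparison used the gonad libraries, chosen by the tissue and sex letters of their titles: 12 of the 24 libraries of the study. They make up 6 of its 12 samples after the 2 libraries of each gonad were added. The labels do not explain the title prefix that sets these 2 apart. They were taken as 2 libraries of the same RNA. The other 6 samples are the brains of the same fish. All fish were farmed, 4 years old or more, 100 to 120 cm long and in their reproductive season, and no strain, allele or treatment is given in the labels. Males were recognised by spermatozoa inside the testis and females by primary oocytes in the ovary. Poly(A) RNA was read on a SOLiD sequencer, and the study asked which genes are expressed differently in males and females.

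A testis of a mature fish holds germ cells from spermatogonia to sperm, Sertoli cells that nurse them and Leydig cells that make androgens. An ovary holds oocytes, which store messenger RNA and proteins for the egg, wrapped in granulosa and theca cells that make oestrogens. In most fish studied, genes of meiosis and of the sperm tail are typical of testis, and genes of the egg coat, of yolk uptake and of oocyte growth are typical of ovary.

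These labels could not be checked against such markers. The counted features are gene models predicted in the genome of the Asian arowana (Scleropages formosus), under identifiers that the table does not pair with gene names, so no marker gene of testis, ovary, blood or any other cell type was matched and no function can be given to a gene model here. In whole organs, fewer cells of a type and less RNA per cell cannot be told apart.

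Summed totals were 8486409, 11781020 and 8893154 counts in testes 1, 2 and 3, and 6601933, 9532066 and 11646782 counts in ovaries 1, 2 and 3. The median gene model had 151 to 336 counts in a sample, and all 22016 gene models had at least 1 count in each of the 6 samples. A gene model without counts in a gonad, such as a gene silent in 1 sex, was thus not among those compared. Whether the authors removed such gene models is not stated, and the shares below hold only for the gene models present. The 2 libraries of a gonad differed by more than counting error, with a ratio of chi-square to degrees of freedom between 3.38 and 7.26. Gonads of different fish of a sex differed more, with 43.7 to 83.5 in the 6 pairs. The first range is from single libraries and the second from summed counts. This ratio grows with depth, so the 2 ranges are not on the same scale. Log2 levels of the 2 libraries of a gonad correlated across gene models at r = 0.972 to 0.986.

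The gene model that separated the gonads with the smallest p was lower in testis. Its level was 10.9, 9.53 and 11.0 CPM (counts relative to library size, scaled between samples by the TMM method of edgeR) in testes 1, 2 and 3, against 33.0, 25.8 and 23.2 CPM in ovaries 1, 2 and 3. The groups lay apart, with the lowest ovary 2.11-fold above the highest testis, and they lay apart in the first and in the second library of each fish taken alone. Its log2 fold change, testis minus ovary, was -1.38 (SE 0.16, 95% interval -1.75 to -1.01), a level 2.60-fold lower in testis. In the edgeR quasi-likelihood test the Benjamini-Hochberg adjusted p over 22001 gene models was 0.809, so the difference did not pass the threshold of 0.05. In brain, which had no part in the choice, males had 11.5, 12.7 and 10.4 CPM, against 14.8, 33.9 and 10.2 CPM in females, and the sexes overlapped.

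The lower gene model with the second smallest p had 16.6, 16.2 and 14.6 CPM in testes, against 28.9, 34.1 and 46.3 CPM in ovaries. The 3 testes lay close together, the ovaries spread more widely, and the groups lay 1.74-fold apart. The log2 fold change was -1.21 (SE 0.18, 95% interval -1.64 to -0.79) and the adjusted p in edgeR 0.809. In brain its level was 47.7, 18.7 and 19.8 CPM in males, against 24.9, 39.3 and 18.2 CPM in females, and the sexes overlapped with almost equal means.

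Among gene models higher in testis, the one with the smallest p had 16.3, 16.8 and 18.8 CPM in testes, against 11.3, 10.8 and 9.93 CPM in ovaries, and each group was tight. The log2 fold change was 0.70 (SE 0.12, 95% interval 0.42 to 0.98), and the adjusted p in edgeR was 0.809. In brain its level was 13.5, 15.5 and 14.2 CPM in males, against 15.3, 13.0 and 16.1 CPM in females, and the sexes overlapped.

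The higher gene model with the second smallest p had the widest fold of these 4 gene models and the lowest counts, 19 to 176 per sample. Its level was 10.8, 12.1 and 7.22 CPM in testes, against 4.45, 2.28 and 1.99 CPM in ovaries. The lowest testis stood 1.62-fold above the highest ovary. The log2 fold change was 1.88 (SE 0.34, 95% interval 1.10 to 2.67), and the adjusted p in edgeR was 0.809. It was the one of the 4 for which male and female brains also lay apart, at 14.2, 14.0 and 12.1 CPM in males, against 9.28, 6.61 and 6.70 CPM in females. Male brains lay wholly above female brains in 12.7% of all gene models. Whether the sex difference is larger in gonad than in brain was tested as an interaction over all 12 samples in edgeR, with a log2 difference of 1.11 and an adjusted p of 0.9998.

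**Figure D1:**
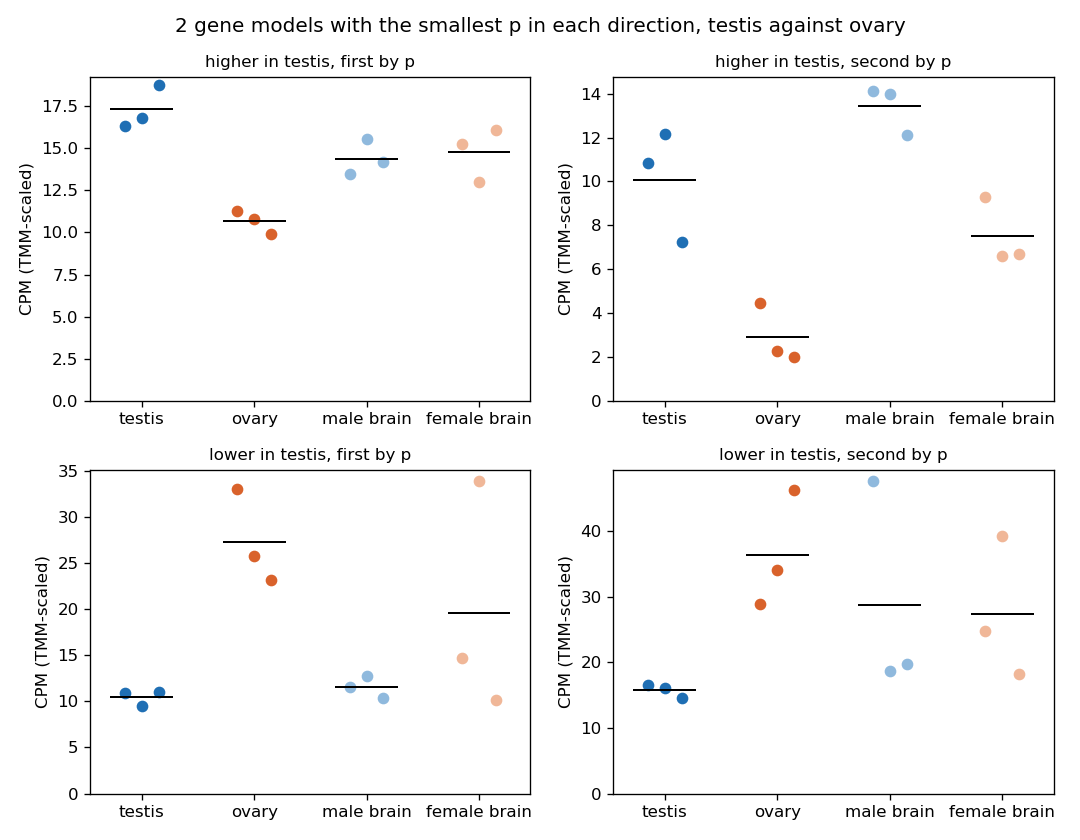
Level in CPM (vertical axis, from 0) of 4 gene models in each sample of testis, ovary, male brain and female brain. Points are fish and horizontal bars are means of 3 fish, and brain levels were scaled among the brain samples. Testis and ovary lie apart in all 4 panels, by the rule that chose them, and male and female brain lie apart only for the second gene model higher in testis (upper right).

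Over the whole table edgeR called 0 gene models, 0% of the 22001 tested, and limma-voom also called 0. At an unadjusted p under 0.05, edgeR had 513 gene models higher (2.33%) and 770 lower (3.50%) in testis. That is 5.83% of the table in all, beside the 5% that a threshold of 0.05 passes when nothing differs. limma-voom had 1179 gene models under that threshold and DESeq2 1624.

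DESeq2 called 32 gene models, 4 higher (0.0182% of the 21963 with a defined adjusted p) and 28 lower (0.127%) in testis. The 4 gene models described above were among them, with DESeq2 adjusted p of 4.42e-10 and 3.04e-06 for the first and second of those lower in testis, and of 0.0130 and 2.15e-05 for the first and second of those higher in testis. In all 32 the testes and ovaries did not overlap, as in 11.0% of the whole table, and the call was made on the same values. In none of the 32 did 1 sample stand 2-fold above the other 5. Their absolute log2 fold change had a median of 0.93 and ran from 0.49 to 2.18. The 28 lower ones were of high level, with a median of 63.8 CPM beside 24.1 CPM over all gene models, and 16 of the 28 were in the top quintile by level. The 4 higher ones had a median of 10.2 CPM.

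The count of DESeq2 calls moved with the fish included. It was 60, 7 and 357 without testes 1, 2 and 3, against 253, 30 and 229 without ovaries 1, 2 and 3. edgeR called 2 gene models without ovary 1, both lower in testis, and 0 without each of the other fish. In brain, 24 of the 28 DESeq2 calls that were lower in testis also had a negative log2 fold change, male minus female, where 48.7% of all gene models did. Male and female brains lay apart in that direction for 3 of them, where they did so in 13.6% of all gene models. These shares of all gene models were not matched for level, and the 28 were of high level. A share among gene models of like level was not computed, so whether 24 of 28 exceeds it was not tested. Of the 4 higher in testis, 3 had a positive log2 fold change in brain, where 48.7% of all gene models had a negative one. Male brains lay wholly above female brains for 1 of these 4, and in 12.7% of all gene models. This share was not matched for level either. For 1 of the 32 calls the brains lay apart in the direction opposite to the gonads, beside the same shares of 12.7% and 13.6%. Brain and gonad samples come from the same fish, so these are not independent of one another.

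How wide a difference the counts left room for was read from the intervals. These reflect the spread among samples and not reads lost or misplaced in mapping to the genome of another species. Whether such reads moved the fold changes was not tested. The standard error of the log2 fold change had a median of 0.16, with 0.11 and 0.37 at the 5th and 95th percentiles of gene models. For 19774 gene models (89.9%) the 95% interval of the fold change, taken one gene model at a time, lay wholly inside a 2-fold difference in either direction. For 13315 (60.5%) it lay inside 1.5-fold. In the remaining 2227 a 2-fold difference lay within the interval or the interval reached past it. For 4 gene models, among them the lower one with the smallest p and the higher one with the second smallest p, the interval lay wholly beyond 2-fold. In the top quintile by level 77.3% of intervals lay inside 2-fold, against 89.3% in the bottom quintile.

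The absolute log2 fold change had a median of 0.13 and a 90th percentile of 0.39. A fold of at least 2 was fitted for 21 gene models higher (0.0955%) and 215 lower (0.977%) in testis. Of these 236, 112 had an unadjusted p under 0.05 in edgeR, 7 higher and 105 lower in testis, and in 62 the testes and ovaries did not overlap. The shares over the whole table were 5.83% and 11.0%, and the choice by fold raises both. In 165 of the 236, 1 sample stood 2-fold or more above all 5 others, as in 1.95% of the table. That sample was an ovary in 155 of them. Since 215 of the 236 were lower in testis, the choice by fold itself favours an ovary as the lone high sample. The largest fold in the table was also set by a lone high sample. Its level was 214, 88.0 and 71.2 CPM in testes 1, 2 and 3, against 264, 4279 and 188 CPM in ovaries 1, 2 and 3. Ovary 2 set the log2 fold change of -3.66 (SE 1.16, edgeR adjusted p = 0.809), and the other 2 ovaries lay close to testis 1.

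**Figure D2:**
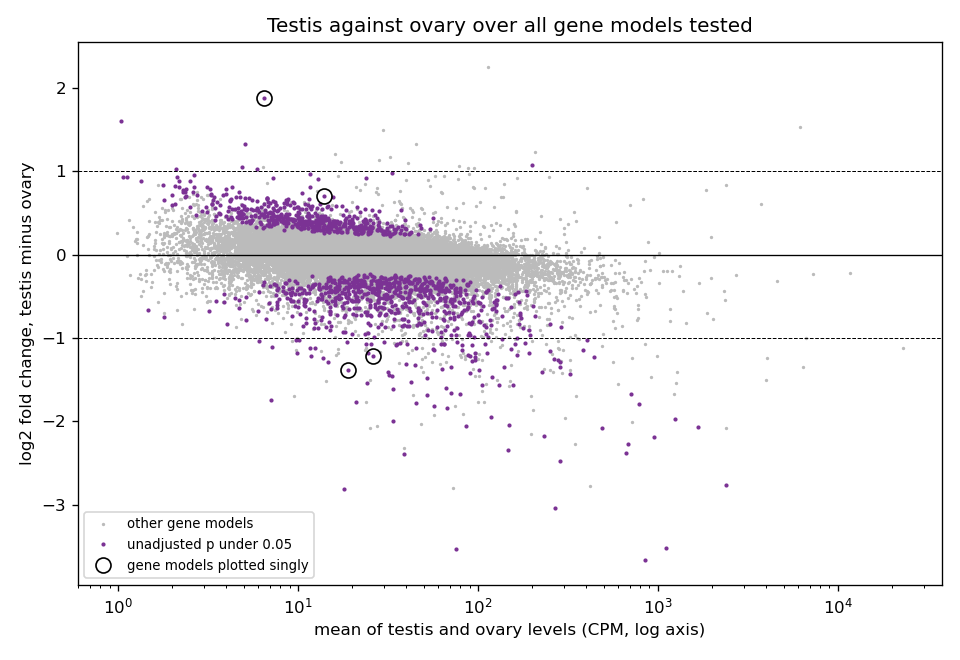
Log2 fold change, testis minus ovary (vertical axis), against the mean level in CPM (log horizontal axis) for the 22001 gene models tested, with the 1283 at an unadjusted edgeR p under 0.05 in purple and the 4 described above circled. Dashed lines mark 2-fold. Gene models beyond the lower line outnumber those beyond the upper one, 215 against 21.

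Sample by sample, all 3 testes lay above all 3 ovaries in 1208 gene models (5.49%) and below them in 1219 (5.54%). This balance did not hold at each level. Of the 4401 gene models in the bottom quintile by level, 452 lay above and 122 below. Of the 4400 in the top quintile, 49 lay above and 439 below. Complete separation of 3 against 3 samples, in either direction, has an exact permutation p of 0.1. About that share of gene models would lie apart if nothing differed. The share here was 11.0% in all, and whether it exceeds 0.1 was not tested. The gaps were narrow. The lowest sample of the upper group was at least 1.1-fold above the highest sample of the lower group in 274 gene models higher and 273 lower in testis, at least 1.25-fold in 42 and 35, at least 1.5-fold in 2 and 6, and at least 2-fold in 1 and 2. The lower gene model with the smallest p was 1 of the last 2. The other had the widest gap of all, 2.21-fold, and DESeq2 also called it. It had 518, 300.2 and 213 CPM in testes, against 1549, 2018 and 1144 CPM in ovaries, with a log2 fold change of -2.19. The gene model higher in testis by such a gap had few counts, 3 to 21 per sample. Of the 2427 gene models whose groups lay apart, 497 did so in the same direction in the first and in the second libraries taken alone.

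The fold changes of the first and second libraries correlated across gene models at r = 0.69 (rho = 0.61). Both come from the same 6 fish, so this speaks of error between the 2 libraries of a gonad and not of the difference between the sexes. The sign was the same in both for 72.2% of all gene models. It was the same for 1280 of the 1283 at an unadjusted p under 0.05, which were picked on the sum of these libraries.

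Gonads of the same sex were no more alike than a testis and an ovary. Across gene models, log2 levels correlated at r = 0.947 to 0.977 between testes (3 pairs), 0.948 to 0.960 between ovaries (3 pairs) and 0.943 to 0.973 between a testis and an ovary (9 pairs). Testis or ovary accounted for 20.8% of the variance of log2 levels summed over gene models, where it takes 1 of 5 degrees of freedom, or 20%. The median gene model had 14.3%. The 20% is a reference for the summed share and not for this median. The first principal component, with 36.0% of the variance, placed testis 2 at -36.1, ovary 1 at -16.8, testis 1 at -16.0, ovary 2 at 12.2, testis 3 at 22.9 and ovary 3 at 33.8. Testes and ovaries alternated along it.

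**Figure D3:**
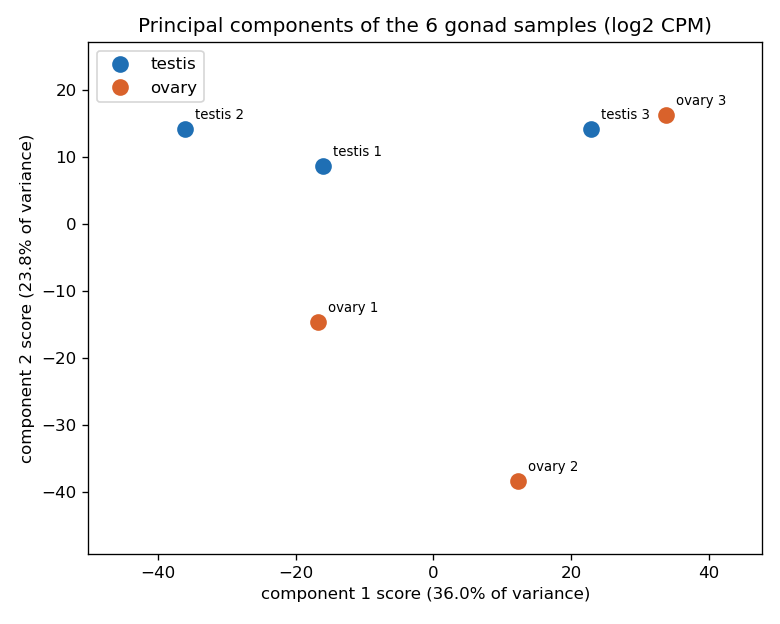
Scores of the 6 gonad samples on the first and second principal components of log2 CPM (horizontal and vertical axes, unitless scores), with testes in blue and ovaries in orange. Testis 3 lies next to ovary 3 and testis 1 is nearer to ovary 1 than to testis 3 on the first component, so the samples do not sort by sex there.

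For the median gene model the spread among ovaries was wider than among testes, a difference that was not tested. The standard deviation of log2 levels over 3 fish had a median of 0.15 in testes and 0.19 in ovaries, and it was larger in ovaries for 59.0% of gene models. Gene models with a standard deviation of at least 1 were closer in number, 243 in testes and 281 in ovaries. Gene models that stood 2-fold or more above all 5 other gonads numbered 12, 20 and 26 in testes 1, 2 and 3, against 122, 180 and 68 in ovaries 1, 2 and 3. Each ovary had more of them than each testis. The 428 gene models are 1.95% of the table, and 295 met the same rule in both libraries of the sample. With total counts alone in place of TMM the numbers were 102 in testes and 290 in ovaries. Gene models 2-fold or more below all 5 other gonads were fewer, 0, 24 and 12 in testes 1, 2 and 3, against 5, 0 and 14 in ovaries 1, 2 and 3, and there the groups overlapped.

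**Figure D4:**
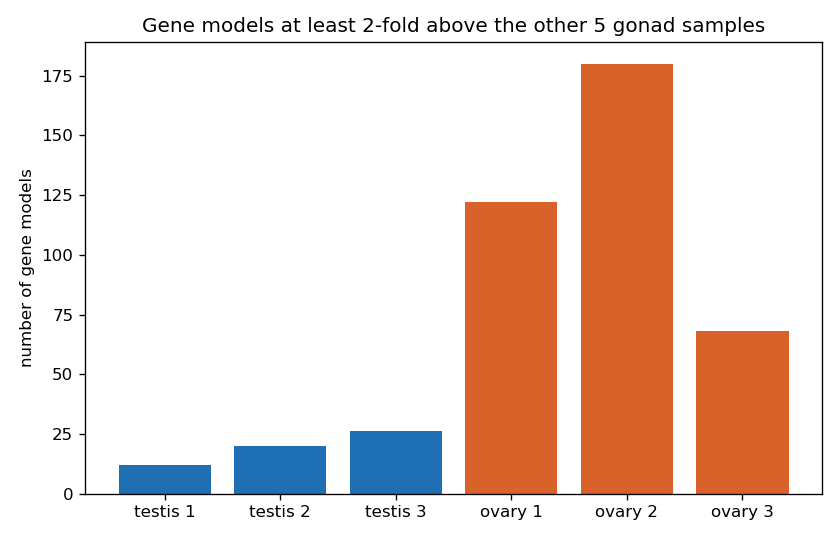
Number of gene models 2-fold or more above all 5 other gonad samples (vertical axis, from 0) for testes 1 to 3 and ovaries 1 to 3. Each bar is 1 sample, and the ovaries, at 68 to 180, all exceed the testes, at 12 to 26.

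Levels of the most abundant gene models ranged widely among fish of a sex. The most abundant of all had 27571, 5727 and 10250 CPM in testes 1, 2 and 3, against 19018, 58775 and 16566 CPM in ovaries 1, 2 and 3, and the groups overlapped. The second had 2493, 895 and 29158 CPM in testes, against 7491, 14053 and 16426 CPM in ovaries, with testis 3 the highest of the 6 and testis 2 the lowest. Among the 10 most abundant, the highest sample exceeded the lowest by 2.0-fold to 63.4-fold. None had an unadjusted edgeR p under 0.05, where 5.83% of the whole table did. Of these 10, 8 had a negative log2 fold change, and the median of the top decile by level was also negative, at -0.18. The groups lay apart for 1 of the 10, the ninth, as they did in 11.0% of the whole table. This one had 3754, 1617 and 918 CPM in testes, against 7789, 3832 and 6185 CPM in ovaries. Whether the 10 differ from gene models of like level was not tested. Of the 22 most abundant gene models of each sample, 6 were shared by all 6 samples, 8 by the 3 testes and 8 by the 3 ovaries.

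The 220 most abundant gene models held 21.2%, 13.0% and 20.8% of counts in testes 1, 2 and 3, against 22.7%, 26.3% and 21.8% in ovaries 1, 2 and 3. The means were 18.3 ± 4.61% in testis and 23.6 ± 2.40% in ovary (SD, n = 3 each, two-sided exact permutation p = 0.1, the smallest that 3 against 3 fish allow). Every ovary lay above every testis, but testes 1 and 3 were within 1 percentage point of ovary 3. The order was not complete in the first or the second libraries taken alone (exact permutation p = 0.2 in each). It was not complete for the 22 most abundant gene models either, which held 11.6%, 6.03% and 9.09% of counts in testes, against 10.3%, 13.8% and 10.00% in ovaries (exact permutation p = 0.4). Without testis 2 the difference of the means, testis minus ovary, was -2.53 percentage points, against -5.23 with all fish.

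The direction of the differences followed the level of the gene model. In the bottom quintile by level, 247 gene models were higher and 64 lower in testis at an unadjusted edgeR p under 0.05. In the top quintile these numbers were 3 and 243. The median log2 fold change, testis minus ovary, was 0.11 in the bottom decile by level and -0.18 in the top decile. The step between these deciles, 0.29, was 0.29 to 0.32 under RLE, upper-quartile and total-count scaling. It was 0.15 without testis 2 and 0.43 without testis 3. Relative to the mean of the 6 gonads, the bottom decile stood at 0.05, 0.14 and -0.04 (medians of log2 levels) in testes 1, 2 and 3, against 0.00, -0.04 and -0.11 in ovaries 1, 2 and 3. In the top decile the values were -0.08, -0.27 and 0.02 in testes, against 0.00, 0.09 and 0.10 in ovaries. Testis 2 stood farthest out in both deciles, and testis 3 lay among the ovaries. The part of this trend in the single fold changes was not tested.

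**Figure D5:**
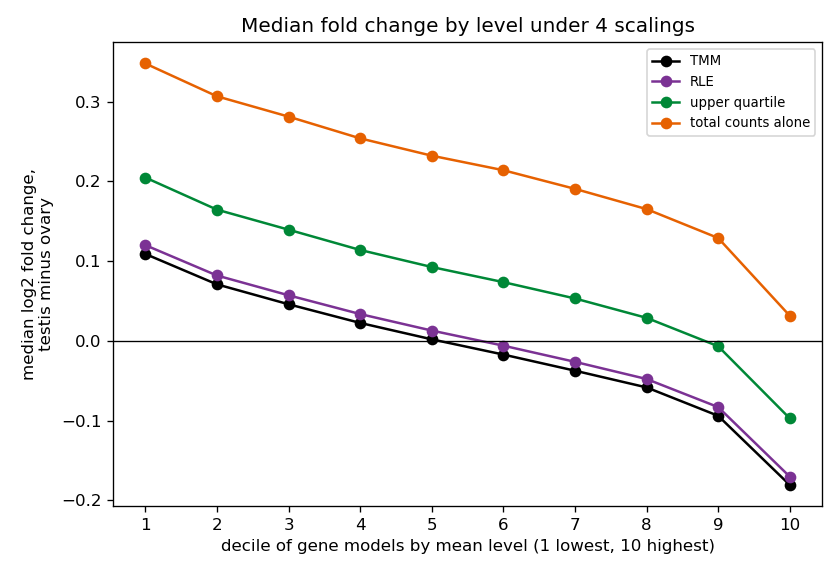
Median log2 fold change, testis minus ovary (vertical axis), of the gene models in each decile by mean level (horizontal axis, 1 lowest to 10 highest) under 4 scalings of the same counts. All 4 lines fall by 0.29 to 0.32 from left to right and differ in height, with the total-count line above 0 throughout.

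The scaling set the zero of the comparison. Over the whole table the log2 fold change had a median of -0.02 with TMM and -0.01 with RLE, 0.07 with upper-quartile scaling and 0.21 with total counts alone. At an unadjusted p under 0.05, 1077 gene models were higher and 363 lower in testis with upper-quartile scaling. With total counts alone these numbers were 2212 and 205, so the balance between the directions turned over. With total counts alone 4025 gene models lay apart with the testes higher and 113 with the testes lower. Each of these scalings left 0 edgeR calls, and more gene models with a fold of at least 2 were lower than higher in testis under each, 117 against 64 with total counts alone. The 4 gene models described singly kept their direction under each scaling and without each fish. They were chosen because their groups lay apart, which left little room for a reversal, so this is no check of their direction.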

How the data were processed

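The deposited table gives the authors' whole-number counts of reads for each library, not normalized. Reads of A. gigas were mapped to the Asian arowana genome, per the labels' series text, with Bowtie (version not stated) per the submitters' processing notes. The counting tool, build, annotation, strand use and filters are not given in those sources. Reads of genes that diverge between the species, or that have near-identical copies, may be lost or misplaced, so each gene model is compared between samples only.

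The 2 libraries of a gonad were summed. The main test was a quasi-likelihood F test in edgeR 4.0.16 (R 4.3.3) across all gene models, 3 testes against 3 ovaries with no block, TMM scaling and the default filter (minimum count 10, minimum total 15), which removed 15 gene models. Wald intervals came from the same fit, with the degrees of freedom of each gene model (median 7.40). DESeq2 1.42.0 and limma-voom 3.58.1 were run on the same gene models, and 38 gene models without a DESeq2 adjusted p were left out of its counts. Log2 CPM used a prior count of 2, and chi-square values used gene models with at least 20 counts in a pair. Scripts were tested on simulated data. The gene models described singly are the 2 with the smallest p in each direction among those whose groups did not overlap, and their identifiers are not reported here.

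The members, rules and lists were chosen with earlier results of these data known. Gene lists for testis, ovary, germ cells, brain, blood, immune cells and muscle could not be matched to the identifiers and gave no result. The labels tie no library to a lane, so no batch other than the first or second library was examined.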

Additional observations from a re-analysis of the deposited data

How the results depend on the processing

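Intervals, counts of folds of at least 2, counts of gene models that stood out in 1 sample and refits of DESeq2 were added after the data were seen. In edgeR each of the other scalings, no filter, each library set alone, all 12 samples in one fit and the replicate block left 0 calls, and leaving out 1 fish gave 0 to 2. DESeq2 called 32. Its count was 7 with the first libraries alone, 96 with the replicate block and 7 to 357 without 1 fish. With edgeR, 1283 gene models had an unadjusted p under 0.05. This number was 2417 with total counts alone, 2087 with all 12 samples in one fit, 1365 with the replicate block and 536 to 2092 without 1 fish (536 without testis 2, 814 without testis 1, 847 without ovary 2 and 2092 without testis 3). Gene models whose groups lay apart numbered 4138 with total counts alone. Intervals inside 2-fold numbered 18785 to 19409 without 1 fish and 20180 with the replicate block. Folds of at least 2 numbered 212 to 383 without 1 fish, with 355 without testis 1 and 383 without testis 3. The difference in the share of the 220 most abundant gene models was -6.64 to -2.53 percentage points without 1 fish. The cause of these moves was not tested. Testes and ovaries share only a number, since they come from different fish. Deviations of same-number samples from their group means correlated at r = 0.10, 0.04 and 0.26, and testis 2 correlated best with ovary 1 (r = 0.25). Of 56 refits of the 4 gene models described singly, 52 kept direction and side of the threshold, and 4, those with DESeq2, kept direction and passed it. The choice of gene models whose groups lay apart left little room for another direction. Counting error weighs most in gene models with few counts.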
